A study of Arabidopsis thaliana with 27 samples.

Results

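Suberin is a polyester of long-chain fatty acids, glycerol and aromatic units that plant cells lay down against their walls to limit the passage of water and solutes. In the Arabidopsis seed it forms in the outer integument and around the chalaza while the seed coat matures, and it is best known from the root endodermis and the periderm. Its precursors are made by fatty acid hydroxylases, acyltransferases and reductases, moved to the wall by ATP-binding cassette transporters of the G subfamily, and joined by GDSL-type enzymes, under the control of R2R3 MYB transcription factors.

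The 10 genes described here, out of 27587 loci in the table, are 3 transporters, 6 MYB factors and 1 GDSL lipase. The transporters are ABCG2 (AT2G37360), ABCG6 (AT5G13580) and ABCG20 (AT3G53510). The MYB factors are MYB9 (AT5G16770), MYB41 (AT4G28110), MYB53 (AT5G65230), MYB92 (AT5G10280), MYB93 (AT1G34670) and MYB107 (AT3G02940), and the lipase is AT5G37690. They were picked by locus name, and all 10 were found. Their set was selected on measured values of these seeds, because earlier results of the severe stress comparison (27 °C against 23 °C) were known when it was put together. The differences at 27 °C are therefore given as a description without a test. Tests are given for mild stress (25 °C against 23 °C) and for the change from stage to stage at 25 °C and at 23 °C. The 25 °C libraries took no part in the severe stress comparison, whereas those at 23 °C did.

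Whole seeds of Arabidopsis thaliana ecotype Col-0 were sampled when the embryo was at heart stage, at bent stage or mature. From first flowering on, plants stood at 24/22 °C (mean 23 °C, the control), 26/24 °C (mean 25 °C, mild stress) or 28/26 °C (mean 27 °C, severe stress, SS). Each of the 9 groups had 3 libraries, which the study's methods call biological replicates. Since no source used here says whether they came from separate plants, the tests measure the spread between these libraries, which may be technical. Embryo, endosperm and seed coat were ground together, so fewer cells of a type and less RNA per cell cannot be told apart.

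Total counts per library ranged from 17227596 to 19445885. The first heart library at 23 °C stood apart from its group. It had 26427.7 normalised counts of CRU3, a seed storage protein gene of the maturing embryo, against 352.7 and 170.9 in the others. The third bent library at 23 °C had a size factor of 0.829, against 1.08 and 1.04 in its group. Among the seed coat markers only TT12 reached 0, in mature libraries at 25 °C and 27 °C. Of the root endodermis markers, the Casparian strip gene CASP5 was at 0 in all 27 libraries and CASP1 reached at most 0.958 normalised counts.

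The 10 genes differed widely in abundance. Compared per length, as TPM, a unit that corrects for transcript length and library size, the means over all 27 libraries were 70.9 TPM for ABCG20, 44.8 for AT5G37690, 27.8 for MYB107 and 25.8 for MYB9. They were 12.8 TPM for ABCG6, 11.3 for ABCG2, 5.27 for MYB53 and 4.64 for MYB92. MYB93 had 0.311 TPM and MYB41 had 0.216 TPM, so these lay at the limit of what the depth allows. All other values below are normalised counts, which compare libraries for a gene and not genes with each other. A gene was tested if it had at least 10 counts in at least 3 libraries. Of the 10 genes 9 passed, MYB93 only through 5 libraries of bent seeds at 27 °C and mature seeds at 25 °C and 27 °C, and MYB41 did not pass, with 1 such library.

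**Figure D1:**
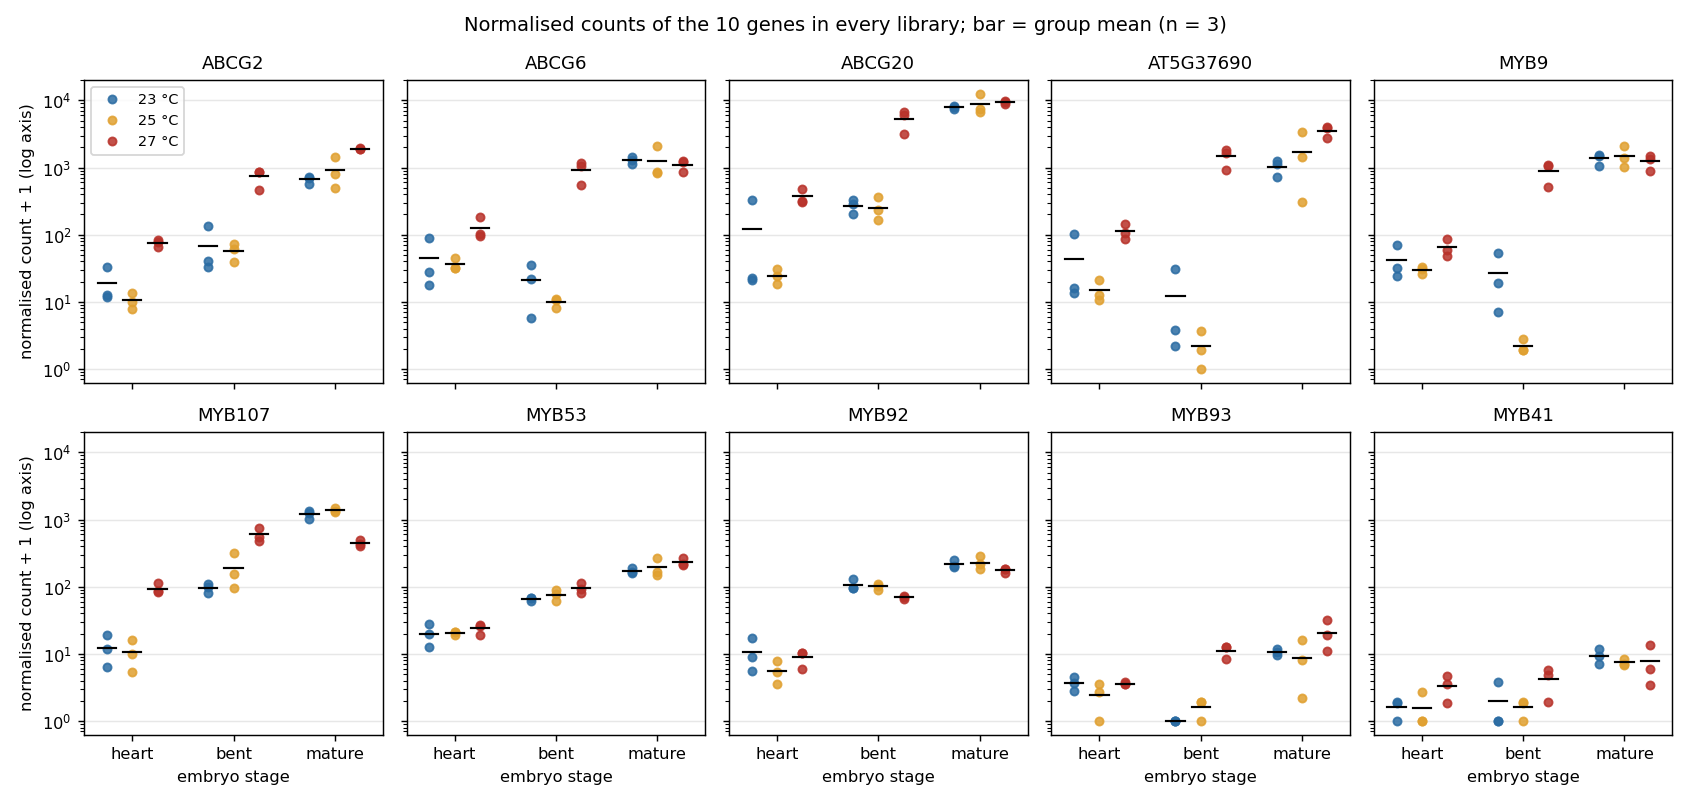
Normalised counts (plus 1, log axis) of the 10 genes in each of the 27 libraries, by embryo stage and, within a stage, at 23, 25 and 27 °C from left to right. Points are libraries and bars are group means (n = 3). ABCG2, ABCG6, ABCG20, AT5G37690, MYB9, MYB107 and, at low counts, MYB93 had every bent library at 27 °C above all bent libraries at 23 and 25 °C. The set was chosen with results at 27 °C known, so nothing is read from how many did so. Of all genes 15.9% were called higher in bent seeds at 27 °C against 23 °C.

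The 3 transporters are required for the suberin barrier of roots and seed coats. ABCG20 had the highest mean TPM over all libraries, but not in every group. In bent seeds MYB107 had 6.36 TPM at 23 °C and 14.45 TPM at 25 °C, and ABCG20 had 5.63 and 6.24 TPM. In heart seeds at 25 °C the means of MYB9 (1.68 TPM), MYB53 (1.28 TPM), ABCG6, AT5G37690 and MYB107 all exceeded that of ABCG20 (0.584 TPM). In heart seeds it had 322, 21.5 and 20.4 normalised counts at 23 °C, 29.7, 23.1 and 17.3 at 25 °C, and 311, 479 and 321 at 27 °C. In bent seeds the values were 284, 199 and 328 at 23 °C, 360, 232 and 165 at 25 °C, and 6817, 3108 and 6072 at 27 °C. In mature seeds they were 7330, 8035 and 8284 at 23 °C, 12663, 7464 and 6754 at 25 °C, and 8935, 9853 and 9357 at 27 °C. All bent libraries at 27 °C lay above those of the other temperatures, and the highest, 6817, exceeded the lowest mature library. The first heart library at 23 °C, the one rich in CRU3, was as high as heart seeds at 27 °C, and without it the other heart libraries at 23 °C lay below them.

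ABCG2 followed a like course at lower counts. In heart seeds it had 32.0, 10.7 and 11.5 normalised counts at 23 °C, 12.7, 8.89 and 6.93 at 25 °C, and 64.1, 77.8 and 81.3 at 27 °C. In bent seeds it had 31.6, 40.2 and 132 at 23 °C, 71.8, 59.9 and 37.7 at 25 °C, and 872, 464 and 872 at 27 °C. In mature seeds it had 706, 573 and 734 at 23 °C, 1425, 808 and 499 at 25 °C, and 1940, 1920 and 1894 at 27 °C. It was the only one of the 3 transporters whose libraries at 27 °C lay above those of the other temperatures at every stage. On the opposite strand, the annotated non-coding locus AT2G37362 covers 2362 bases of ABCG2. The counting is not stated to use strand, so reads of the pair cannot be told apart.

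ABCG6 differed from the other transporters in bent seeds. In heart seeds it had 89.7, 26.9 and 16.8 normalised counts at 23 °C, 43.3, 31.1 and 31.2 at 25 °C, and 93.5, 184 and 101 at 27 °C. In bent seeds it had 34.4, 21.1 and 4.83 at 23 °C, 9.75, 7.15 and 9.87 at 25 °C, and 1161, 539 and 1064 at 27 °C. In mature seeds it had 1146, 1443 and 1279 at 23 °C, 2090, 831 and 852 at 25 °C, and 847, 1253 and 1196 at 27 °C. Its lowest group was therefore bent seeds at 25 °C, and mature seeds overlapped between all temperatures.

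AT5G37690 is annotated as a GDSL (SGNH hydrolase) esterase, a family with members that build or cleave suberin and cutin polyesters. In heart seeds it had 99.7, 15.2 and 12.4 normalised counts at 23 °C, 20.4, 11.6 and 9.53 at 25 °C, and 106, 143 and 85.4 at 27 °C. In bent seeds it had 2.79, 29.7 and 1.21 at 23 °C, 0, 0.894 and 2.69 at 25 °C, and 1624, 919 and 1843 at 27 °C. In mature seeds it had 1247, 710 and 1132 at 23 °C, 3343, 1457 and 302 at 25 °C, and 2798, 3846 and 4019 at 27 °C. Mature seeds at 25 °C spread more than 10-fold between libraries, so their mean of 1701 ± 1535 (SD, n = 3) places them neither with the control nor with SS.

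MYB9 and MYB107 are close relatives that activate suberin genes in the seed coat. MYB9 had 69.5, 30.4 and 23.0 normalised counts in heart seeds at 23 °C, 24.6, 30.2 and 32.1 at 25 °C, and 57.7, 85.4 and 47.8 at 27 °C. In bent seeds it had 53.0, 18.2 and 6.03 at 23 °C, 0.886, 0.894 and 1.80 at 25 °C, and 1074, 521 and 1036 at 27 °C. In mature seeds it had 1067, 1484 and 1558 at 23 °C, 2118, 1368 and 1027 at 25 °C, and 888, 1493 and 1346 at 27 °C. Like ABCG6 and AT5G37690, MYB9 was at its lowest in bent seeds at 25 °C, and like ABCG6 it overlapped between the 3 temperatures in mature seeds. The gene AT5G16780 lies on the opposite strand and shares 1447 bases with MYB9. AT5G16780 had 1472.1 to 1953.1 normalised counts in every library, while MYB9 came down to 0.886.

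MYB107 ran a different course. In heart seeds it had 18.3, 5.37 and 10.6 normalised counts at 23 °C, 15.3, 8.89 and 4.33 at 25 °C, and 84.3, 112 and 81.3 at 27 °C. In bent seeds it had 80.0, 108 and 96.5 at 23 °C, 314, 154 and 95.1 at 25 °C, and 756, 481 and 558 at 27 °C. In mature seeds it had 1324, 1236 and 1014 at 23 °C, 1331, 1313 and 1477 at 25 °C, and 408, 501 and 425 at 27 °C. Libraries at 27 °C lay above those at 23 °C in heart and bent seeds and below them in mature seeds. At 27 °C the mature libraries also overlapped the bent ones, whereas at 23 and 25 °C every mature library was higher.

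MYB53 and MYB92 promote suberin formation in the root endodermis. In bent seeds MYB53 had 59.5, 68.0 and 67.6 normalised counts at 23 °C, 76.2, 59.9 and 89.8 at 25 °C, and 113, 91.8 and 81.0 at 27 °C. Its group means were 18.95, 19.7 and 23.2 in heart seeds and 171, 196 and 229 in mature seeds at 23, 25 and 27 °C. In bent seeds MYB92 had 94.9, 128 and 94.1 at 23 °C, 109, 87.6 and 103 at 25 °C, and 70.0, 63.7 and 72.3 at 27 °C. MYB92 group means were 9.64, 4.64 and 7.83 in heart seeds and 214, 227 and 176 in mature seeds. In both genes the stages separated at each temperature, and in bent seeds the 27 °C libraries lay above those at 23 °C for MYB53 and below them for MYB92. The annotated gene AT5G65225 shares 57 bases with MYB53 on the same strand and had 0.8 to 42.7 normalised counts.

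MYB41 and MYB93, which also activate suberin synthesis in roots, were the least abundant. MYB41 had 0 to 4 counts in heart seeds and 0 to 5 in bent seeds at any temperature, and 5 to 9, 5 to 6 and 2 to 11 counts in mature seeds at 23, 25 and 27 °C. MYB93 had 8 to 12 counts in bent seeds at 27 °C and 0 counts in all bent libraries at 23 °C, which is at least 3.34-fold higher at 27 °C, with 3 counts per library as the floor at 23 °C. In mature seeds MYB93 had 7 to 9 counts at 23 °C, 1 to 12 at 25 °C and 8 to 27 at 27 °C.

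The effect of mild stress was tested first. Few of the 10 genes passed it at 25 °C against 23 °C. In heart seeds 1 of the 10, ABCG20, was lower at 25 °C (−2.37 ± 0.65, log2 fold change ± SE, DESeq2 adjusted p = 0.0382), against 0.546% of all 21445 tested genes called lower. That call rests on the CRU3-rich control library: without it the difference was 0.16 on the log2 scale (adjusted p = 0.996), edgeR gave an adjusted p of 0.335, and leaving out any 1 of the heart libraries at 25 °C also ended it. None was higher (0 also at an unadjusted p under 0.05 and by edgeR), against 0.275% of all genes.

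In bent seeds 15803 of the 21445 genes had no adjusted p at 25 °C against 23 °C and could not be called, 7 of the 10 among them. Shares of all genes in this comparison include them, so they understate the share among genes that could be called. AT5G37690 was lower at 25 °C (−3.25 ± 1.16, DESeq2 adjusted p = 0.0462), against 2.94% of all genes called lower. The libraries hold few counts, 0, 1 and 3 at 25 °C, and the pooled ratio was 0.1002 with a 95% counting interval of 0.0259 to 0.280. Of the bent libraries compared, only the second at 23 °C, with 31 counts, reached the 10 counts of the filter. The gene was tested through its counts in other groups, so nothing is read from this call. By edgeR AT5G37690 had an adjusted p of 0.547, but edgeR called 0 of all genes higher and 0 lower in this comparison. Without the second bent library at 23 °C, which carried 31 of the 35 counts of its group, the difference was −0.79 (adjusted p = 0.735). The call was also lost without the third bent library at 23 °C (adjusted p = 0.199) and without any 1 of the bent libraries at 25 °C. It was lost with independent filtering switched off too (adjusted p = 0.0976) and with library-total size factors (adjusted p = 0.119). Tissue markers differed in the same seeds. The 5 embryo maturation markers summed to 17747.5 to 31801.7 normalised counts at 25 °C, against 47082.3 to 59887.7 at 23 °C, and the 4 pollen markers to 207.4 to 243.2, against 694.6 to 1473.2. Neither sum overlapped, and their part in the result was not tested. None of the 10 was called higher, against 0.121% of all genes, and 1 was higher at an unadjusted p under 0.05 (0 by edgeR after adjustment).

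DESeq2 withheld an adjusted p from 15803 genes of this comparison because of their mean counts, among them 7 of the 10. MYB9 was one: it had 1, 1 and 2 counts at 25 °C, and its difference was −4.45 ± 0.89 on the log2 scale. The pooled ratio for MYB9 was 0.0433, with a counting interval of 0.0115 to 0.115. With this filtering switched off its adjusted p was 0.00147, and edgeR, which called 0 of all genes here, gave 0.12. The difference of MYB107 was 0.98 ± 0.32 in the same comparison, with overlapping libraries. In mature seeds none of the 10 was called, with 0 higher and 0 lower also at an unadjusted p under 0.05 and by edgeR, against 0.807% of all genes higher and 0.797% lower. The largest difference there was that of AT5G37690, 0.72 ± 0.87.

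**Figure D2:**
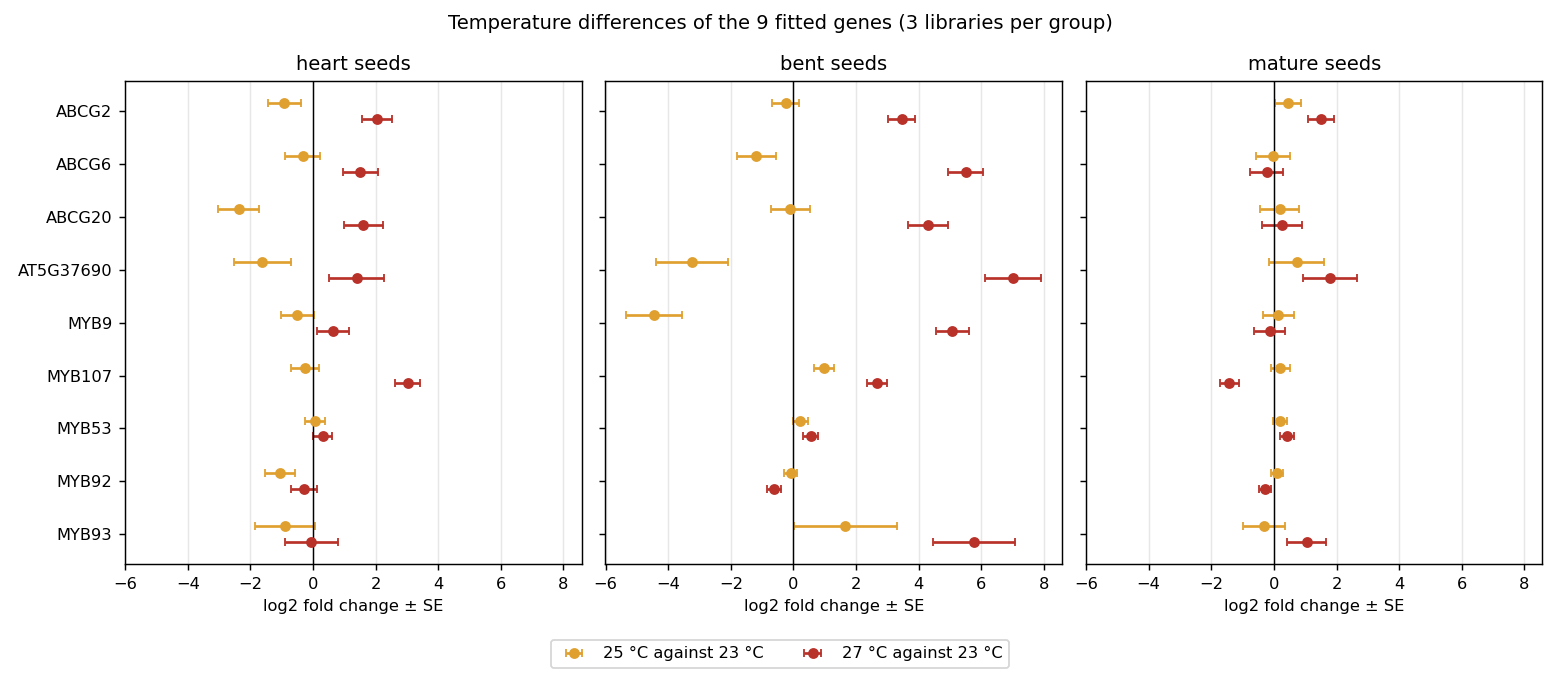
Log2 fold change ± SE of 9 genes at 25 °C and at 27 °C, each against 23 °C, in heart, bent and mature seeds, on one scale. In bent seeds at 27 °C the points of ABCG2, ABCG6, ABCG20, AT5G37690, MYB9 and MYB107 lie between 2.66 and 7.01, and in mature seeds MYB107 lies at −1.42.

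At 27 °C against 23 °C the values describe the selection and nothing is read from their number. In heart seeds 4 of the 10 genes were called higher (ABCG2, ABCG6, ABCG20 and MYB107), beside 12.6% of all genes higher and 11.5% lower. On the log2 scale MYB107 differed by 3.02 ± 0.39, ABCG2 by 2.04 ± 0.46, ABCG20 by 1.61 ± 0.64 and ABCG6 by 1.51 ± 0.55. Without the CRU3-rich control library these were 3.53, 2.74, 4.14 and 2.53, and AT5G37690 had 3.01, against 1.39 ± 0.88 with it.

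In bent seeds 7 of the 10 were called higher at 27 °C and MYB92 lower, beside 15.9% of all genes higher and 21.0% lower (23.5% and 8.24% with library-total size factors). The log2 fold changes were 3.45 ± 0.43 for ABCG2, 5.499 ± 0.57 for ABCG6 and 4.30 ± 0.63 for ABCG20. They were 7.01 ± 0.91 for AT5G37690, 5.07 ± 0.52 for MYB9 and 2.66 ± 0.32 for MYB107. Leaving out 1 bent library at 23 °C moved several of these: AT5G37690 to 9.47 without the second, MYB9 and ABCG6 to 6.14 and 6.12 without the first, and ABCG2 to 4.35 without the third. MYB93 was the seventh, and its fold is given above as a bound. It passed the filter on low counts only through groups where it was high, these seeds among them, so its call adds nothing here. MYB53 differed by 0.55 ± 0.24 and MYB92 by −0.63 ± 0.21. The group mean in bent seeds at 27 °C came to 71.5% of the highest group mean for ABCG6, 58.3% for MYB9, 56.8% for ABCG20, 43.6% for MYB107, 41.1% for AT5G37690 and 38.4% for ABCG2. In bent seeds at 23 °C the same genes were at 0.316% (AT5G37690) to 6.91% (MYB107) of their highest group.

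In mature seeds ABCG2 was called higher at 27 °C (1.52 ± 0.42) and MYB107 lower (−1.42 ± 0.31), beside 14.7% of all genes higher and 15.4% lower. AT5G37690 differed by 1.79 ± 0.87. In the same seeds the 7 seed coat markers summed to 18128.4 to 19290.6 at 27 °C, against 23276.1 to 30407.1 at 23 °C, and the 4 pollen markers to 60.2 to 120.3, against 332.5 to 1302.9. These sums did not overlap, and their part in the values of ABCG2 and MYB107 was not tested. The differences of ABCG6, ABCG20 and MYB9 were −0.23 ± 0.53, 0.25 ± 0.63 and −0.14 ± 0.49. The 27 °C effect in mature seeds minus that in bent seeds was −4.08 ± 0.44 for MYB107. It was −5.73 ± 0.78 for ABCG6, −5.21 ± 0.72 for MYB9 and −5.22 ± 1.26 for AT5G37690. For MYB53 and MYB92 the same differences of effect were −0.13 ± 0.32 and 0.35 ± 0.29.

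Markers of other seed tissues were measured in the same libraries. The summed level of the 7 seed coat markers was 34758.4 to 37139.5 normalised counts in bent seeds at 27 °C, against 43310.1 to 73350.0 at 23 °C. That of the 5 embryo maturation markers was 46448.9 to 97176.4 in bent seeds at 27 °C, against 47082.3 to 59887.7 at 23 °C. That of the 5 endosperm markers was 72721.0 to 107381.2 in bent seeds at 27 °C, against 47707.9 to 84382.3 at 23 °C. In heart seeds the endosperm sum was 10824.3 to 12931.8 at 27 °C, against 1810.9 to 5033.4 at 23 °C. The embryo maturation sum there was 4669.1 to 7041.9, against 1833.3 to 41398.1 with the CRU3-rich library among the controls. CRU3 itself had 1551.4 to 2786.0 at 27 °C, against 26427.7, 352.7 and 170.9 at 23 °C. The pollen marker sum was 288.4 to 430.6 in heart seeds at 27 °C, against 1170.0 to 2870.7 at 23 °C. In bent seeds it was 106.4 to 217.9, against 694.6 to 1473.2. PHE1 of the endosperm list was at 0 in some bent libraries at 23 °C and some mature libraries at each temperature, and CRU3 and SESA4 of the embryo list in some heart libraries at 25 °C. The part of these tissues in the values of the transporters, MYB factors and lipase was not tested.

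The change from stage to stage was then tested at 25 °C. From the heart to the bent stage the genes split. Higher in bent than in heart seeds were 5 of the 10: MYB92 (4.43 ± 0.41, DESeq2 adjusted p = 3.11e-26), MYB107 (4.30 ± 0.40), ABCG20 (3.43 ± 0.65), ABCG2 (2.57 ± 0.50) and MYB53 (1.94 ± 0.28). Lower were 3: MYB9 (−4.61 ± 0.89, adjusted p = 8.75e-07), AT5G37690 (−3.54 ± 1.15, adjusted p = 0.0047) and ABCG6 (−1.98 ± 0.61, adjusted p = 0.00273). Of all genes 27.0% were called higher and 30.8% lower. The fall of AT5G37690 did not pass with edgeR (adjusted p = 0.226), while that of MYB9 did (adjusted p = 0.00232). The pooled ratio of bent over heart seeds was 0.0411 for MYB9, with a counting interval of 0.011 to 0.109, and 0.0857 for AT5G37690, with an interval of 0.0224 to 0.234. AT5G37690 ranged between −4.96 and −2.95 without the third or the first bent library, and MYB107 had 3.71 without the first.

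From the bent to the mature stage at 25 °C 9 of the 10 were called higher in mature seeds (MYB41 was not tested), against 23.4% of all genes called higher and 22.5% lower. With library-total size factors the shares of all genes were 9% higher and 50.4% lower, and the 9 calls stood. MYB93 passed the filter on low counts only through groups where it was high, mature seeds at 25 °C among them, so its call adds nothing here. The changes ran between 1.19 ± 0.20 for MYB92 (DESeq2 adjusted p = 1.84e-08) and 10.48 ± 1.13 for AT5G37690 (adjusted p = 8.97e-19). ABCG6 rose by 7.14 ± 0.60, ABCG20 by 5.15 ± 0.63, ABCG2 by 4.01 ± 0.43, MYB107 by 2.87 ± 0.31 and MYB53 by 1.38 ± 0.23. MYB9 rose by 10.30 ± 0.87. Since MYB9 and AT5G37690 had 4 counts each over the 3 bent libraries, their pooled ratios were 1251 (counting interval 488 to 4595) and 1400 (546 to 5141). Leaving out single libraries moved AT5G37690 between 9.53 (without the first mature library) and 11.9 (without the third bent library), and MYB107 to 3.46 without the first bent library. The value of MYB93, 3.69 ± 1.19, lost its call without the first mature library at 25 °C (adjusted p = 0.0568).

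At 23 °C the libraries also served as control for the selection. From heart to bent seeds 4 of the 10 rose (MYB92 by 3.47 ± 0.32, MYB107 by 3.06 ± 0.39, ABCG2 by 1.90 ± 0.47 and MYB53 by 1.78 ± 0.29), against 29.3% of all genes. Lower was 1, MYB93, with 2 to 4 counts in heart and 0 in bent libraries, against 29.6% of all genes. MYB93 passed the filter on low counts only through groups outside this comparison where it was high, so its call adds nothing here. The difference of ABCG20, 1.16 ± 0.64, was 3.69 without the CRU3-rich heart library and then passed (DESeq2 adjusted p = 4.06e-20). AT5G37690 had −1.90 ± 0.91 and ABCG6 −1.12 ± 0.58, neither of them called. Without the CRU3-rich heart library these were −0.28 and −0.09. AT5G37690 was called lower without the second or the third heart library, or the second bent one (−4.37), and ABCG6 without the third heart library or the first bent one (−1.75). MYB9 had −0.65 ± 0.53, with −1.72 and a call without the first bent library, and −0.03 without the CRU3-rich heart library. ABCG2 had 1.00 without the third bent library and 2.59 without the CRU3-rich heart library, and MYB92 had 4.09 without that one. From bent to mature seeds 9 of the 10 rose (MYB41 was not tested), between 1.01 ± 0.20 (MYB92) and 6.51 ± 0.91 (AT5G37690), against 23.4% of all genes higher and 27.0% lower. MYB93 is among the 9, and its call adds nothing here either, since no library of the 2 groups reached 10 counts. The value of AT5G37690 was 8.97 without the second bent library. Those of MYB9 and ABCG6 were 6.78 and 6.60 without the first bent library, and that of ABCG2 was 4.22 without the third.

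At 27 °C, described without a test, none of the 9 fitted genes was lower in bent than in heart seeds, and the changes ran from 1.97 ± 0.75 (MYB93) to 3.85 ± 0.63 (ABCG20). ABCG6, MYB9 and AT5G37690, which fell over this interval at 25 °C, had 2.87 ± 0.54, 3.79 ± 0.50 and 3.71 ± 0.87. From bent to mature seeds at 27 °C, ABCG6 had 0.25 ± 0.53, MYB9 0.50 ± 0.49, ABCG20 0.81 ± 0.63 and MYB107 −0.43 ± 0.31. MYB53 and MYB92 had 1.27 ± 0.22 and 1.36 ± 0.21, close in value to their changes at 23 and 25 °C.

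**Figure D3:**
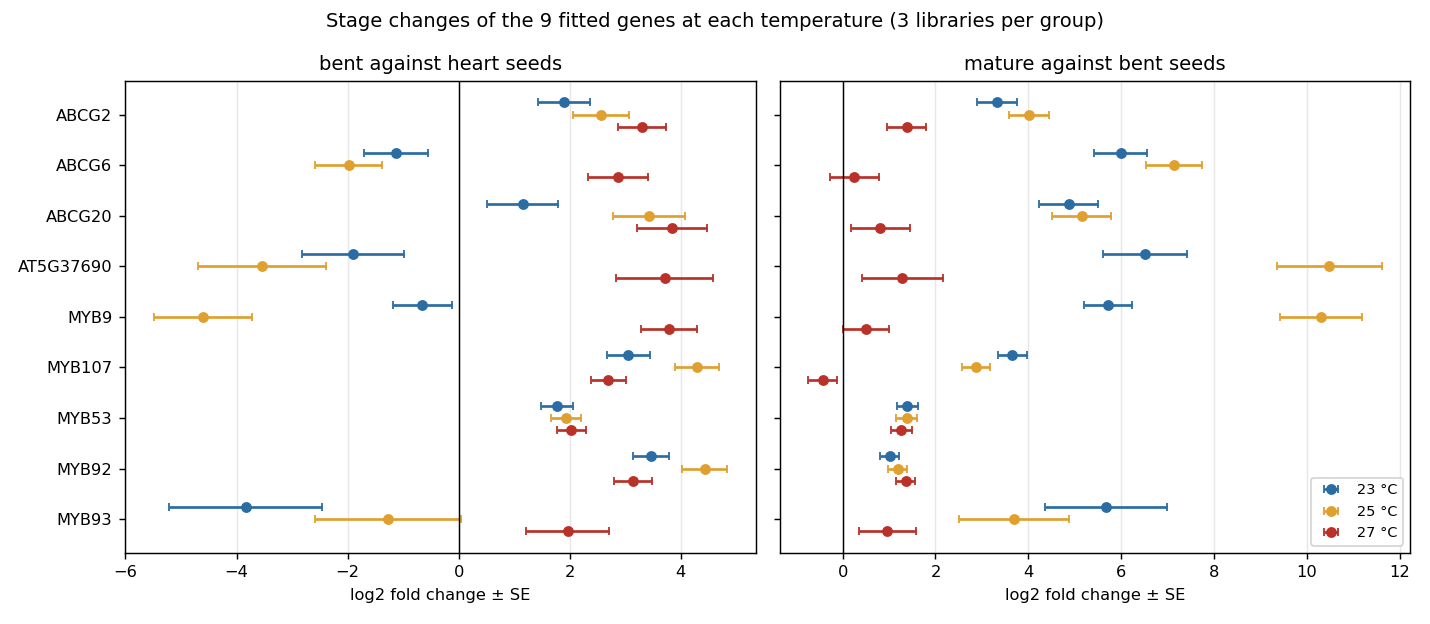
Log2 fold change ± SE between successive stages for 9 genes at 23, 25 and 27 °C (3 libraries per group). The left panel sets bent against heart seeds and the right panel mature against bent seeds. ABCG6, MYB9 and AT5G37690 lie below 0 on the left at 25 °C and above 0 at 27 °C, and on the right MYB53 and MYB92 lie between 1.01 and 1.40 at all 3 temperatures.

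Likeness of the profiles was described by Pearson's r of log2(normalised count + 1) over the 27 libraries for the 8 genes whose mean normalised count was 50 or more. The points share stage and temperature, so any gene that climbs with seed age scores high. The median over pairs was 0.827. The closest pairs were ABCG2 with ABCG20 (0.979), ABCG6 with MYB9 (0.976), ABCG6 with AT5G37690 (0.966), MYB9 with AT5G37690 (0.952), ABCG20 with MYB107 (0.944) and MYB53 with MYB92 (0.936). The least like were MYB92 and AT5G37690 (0.414). MYB9 and MYB107, relatives with the same known role in the seed coat, had 0.654.

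**Figure D4:**
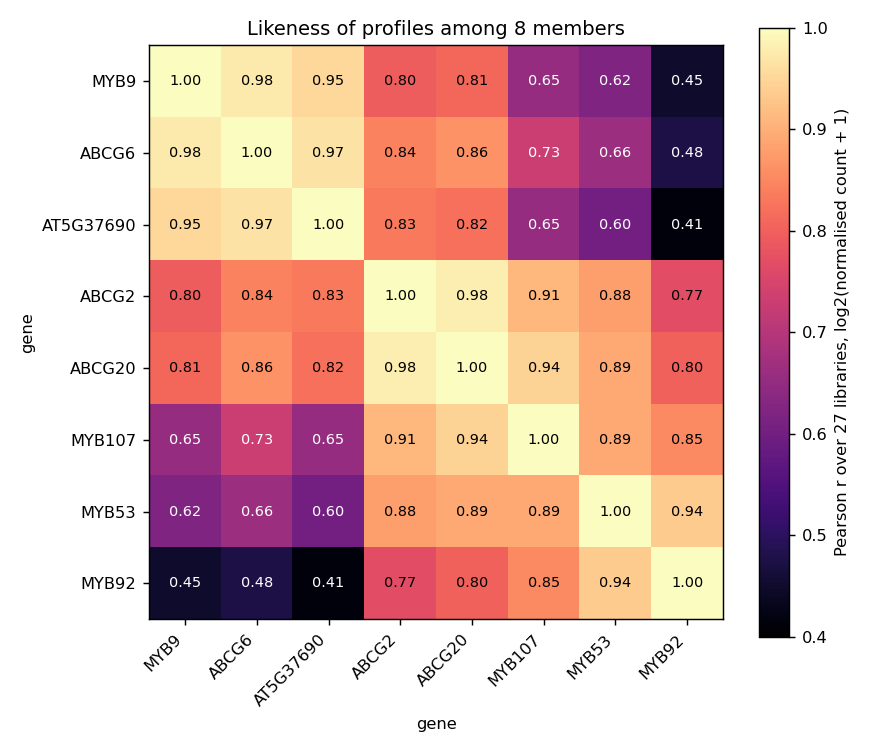
Pearson r between the profiles of 8 genes over 27 libraries, on log2(normalised count + 1). MYB9, ABCG6 and AT5G37690 form a block of values from 0.952 to 0.976, and MYB92 has 0.414 to 0.477 with them.

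Among 17495 other genes ranked by the same measure, those most like ABCG20 were scpl5, a serine carboxypeptidase-like gene (0.991), AT2G38380, a peroxidase (0.990), and the transporter ABCG10 (0.985), and ABCG2 ranked 7. Those most like MYB9 were AT2G22510, a hydroxyproline-rich glycoprotein (0.990), AT3G52790, a LysM domain protein (0.986), and AT1G74460, another GDSL lipase (0.984). The genes nearest to AT5G37690 were AT5G44550, a CASP-like protein (0.985), CYP86A1, a fatty acid hydroxylase of suberin synthesis (0.983), and AT4G24140, an alpha/beta hydrolase (0.982). MYB92 was most like AT5G24130 (0.992), ABI3, a regulator of embryo maturation (0.991), and AT5G48940, a receptor-like kinase (0.991).

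The enzymes of suberin synthesis were taken as a list of 12 genes. At 25 °C against 23 °C, none passed in heart or bent seeds, where DESeq2 withheld the adjusted p of 1 and of 7 of them (1 lower at an unadjusted p under 0.05 at each stage, 0 by edgeR after adjustment), and 1 was higher in mature seeds. That was FACT, a fatty alcohol caffeoyltransferase (5.44 ± 0.99, DESeq2 adjusted p = 6.31e-05), with 47.4 to 4778 normalised counts at 25 °C, against 8.37 to 59.6 at 23 °C. Without the first mature library at 25 °C FACT had 2.25 (adjusted p = 0.0874), and with only the compared groups its adjusted p was 0.0814. From heart to bent seeds at 25 °C 6 of the 12 were lower and 1, CYP86B1, was higher, against 30.8% and 27.0% of all genes (median −0.82 for the list, −0.037 for all genes). From bent to mature seeds at 25 °C all 12 were higher, against 23.4% of all genes (median 5.58, and −0.009 for all genes).

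The 3 enzymes with the highest mean normalised count, by which they were chosen, were ASFT, which joins ferulate to suberin, CYP86B1, a hydroxylase of very long fatty acids, and KCS2, which elongates fatty acids. From bent to mature seeds at 25 °C they rose by 5.31 ± 0.42, 3.99 ± 0.33 and 1.07 ± 0.21. In bent seeds ASFT had 4945 to 10453 normalised counts at 27 °C, against 281 to 664 at 23 °C. CYP86B1 had 2249 to 4207 at 27 °C, against 422 to 586 at 23 °C, and KCS2 had 3052 to 4290, against 1050 to 2297. As a description, 3 of the 12 were called higher at 27 °C in heart seeds, 11 were in bent seeds and 9 were when mature, beside 12.6%, 15.9% and 14.7% of all genes, and none was lower. In mature seeds ASFT differed by −0.12 ± 0.42 and CYP86B1 by 1.42 ± 0.33.

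**Figure D5:**
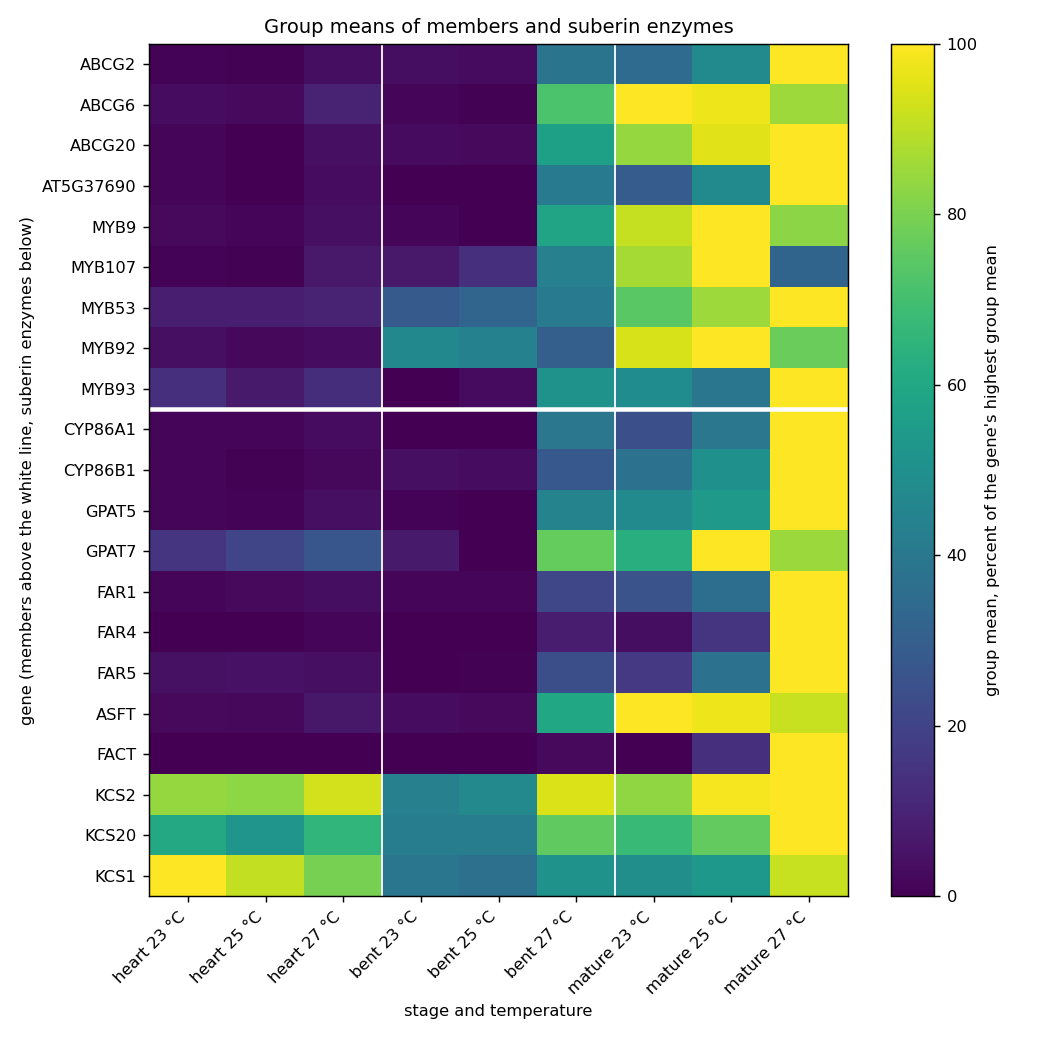
Group means of 9 of the genes (above the white line) and of the 12 suberin enzymes (below it), each as percent of the gene's highest group mean, for 3 stages and 3 temperatures. Bent seeds at 27 °C stand at 38.4 to 71.5% for ABCG2, ABCG6, ABCG20, AT5G37690, MYB9 and MYB107. The 12 enzymes stand there between 2.37% (FACT) and 94.8% (KCS2), and KCS2 is at 84.3% already in heart seeds at 23 °C.

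Of 6 further ABCG genes 5 were tested. As a description, ABCG16 and ABCG19 were called higher in bent seeds at 27 °C and none lower, beside 15.9% of all genes higher and 21.0% lower. In heart seeds at 27 °C ABCG18 (−1.51 ± 0.32) and ABCG11 (−0.34 ± 0.09) were called lower and none higher, beside 11.5% of all genes lower and 12.6% higher. In mature seeds none of the 5 was called, beside 14.7% of all genes higher and 15.4% lower. ABCG11, a cuticular lipid transporter with the highest mean count of the 6, had 3634 to 3659 normalised counts in bent seeds at 27 °C, against 3340 to 4687 at 23 °C. Its count fell from stage to stage, by 1.11 ± 0.09 from heart to bent seeds and by 0.41 ± 0.09 from bent to mature seeds at 25 °C (both called). ABCG1 and ABCG18, next by that measure, also fell from heart to bent seeds at 25 °C, by 1.59 ± 0.16 and 3.27 ± 0.33. All 5 were called lower over that interval, ABCG16 (−2.24 ± 0.80) and ABCG19 (−1.29 ± 0.21) among them, against 30.8% of all genes lower and 27.0% higher. ABCG16 rose from bent to mature seeds at 25 °C (5.02 ± 0.77) and was the only one of the 5 to do so, while 3 fell, against 23.4% of all genes higher and 22.5% lower. At 25 °C against 23 °C none of the 5 passed at any stage with DESeq2, which withheld 4 of them in bent seeds, or edgeR, and at an unadjusted p under 0.05 DESeq2 gave 1 higher in heart seeds, 1 higher and 2 lower in bent seeds and 0 in mature seeds. Of 4 MYB relatives (MYB39, MYB49, MYB74 and MYB102) none passed the filter. MYB39, which acts on suberin in roots, was at 0 in all 27 libraries, and the 4 together did not exceed 28.0 normalised counts in any library.

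Most members are simple transcription units in the RefSeq annotation of assembly TAIR10.1. ABCG2 (chromosome 2, 15673410 to 15675920), ABCG6 (chromosome 5, 4370692 to 4373201) and ABCG20 (chromosome 3, 19837148 to 19839983) have 1 exon each. MYB9 lies on chromosome 5 (5514717 to 5517153), MYB107 on chromosome 3 (661849 to 664011) and AT5G37690, with 6 exons, on chromosome 5 (14973353 to 14976229). MYB53 and MYB92 are on chromosome 5 as well (26068112 to 26069652 and 3232569 to 3234277), MYB93 is on chromosome 1 (12709090 to 12710665) and MYB41 on chromosome 4 (13968029 to 13969525). Summed over all libraries, the first transcript held 70.9% of the counts of MYB107 and 62.3% of those of AT5G37690. The share of the first MYB107 transcript was 64.6 to 83.7% in mature seeds at 27 °C, against 65.0 to 75.4% at 23 °C, so these ranges overlapped.

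The 250 bases before the annotated start were compared between the 10 genes in 45 pairs, because MYB9 and MYB107 are close relatives with unlike profiles. The longest run of identical bases was 19 in MYB9 with MYB107 and 15 in MYB53 with MYB92, and the median over pairs was 8. The best local alignment of MYB9 and MYB107 matched 77 of 89 aligned bases (86.5%), and that of MYB53 and MYB92 74 of 82 (90.2%), where both regions are covered by another annotated gene. Both sequences are shown to place the shared stretch, 5′ to 3′ on the plus strand of TAIR10.1 (MYB9 at chr5:5514467-5514716 and MYB107 at chr3:661599-661848). Capitals mark the 5 blocks of at least 8 identical bases inside that alignment.
MYB9: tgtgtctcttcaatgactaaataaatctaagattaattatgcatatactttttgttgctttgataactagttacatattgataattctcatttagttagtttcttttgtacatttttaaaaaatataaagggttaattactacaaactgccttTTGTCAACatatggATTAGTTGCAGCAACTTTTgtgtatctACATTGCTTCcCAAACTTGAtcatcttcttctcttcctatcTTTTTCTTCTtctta
MYB107: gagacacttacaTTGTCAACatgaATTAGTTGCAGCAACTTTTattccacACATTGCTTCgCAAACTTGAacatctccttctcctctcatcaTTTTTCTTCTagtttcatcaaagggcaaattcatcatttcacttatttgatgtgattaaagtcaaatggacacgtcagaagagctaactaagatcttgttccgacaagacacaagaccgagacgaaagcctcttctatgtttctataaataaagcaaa

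The stretch ends 6 bases before the annotated start of MYB9 and 149 bases before that of MYB107. The annotated starts may differ from those used in these seeds.

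Motifs were searched on both strands from 250 bases before to 50 after the start, in 27438 promoters. ACGTG, the core of abscisic acid response elements, was in 4 of the 10 (MYB41, MYB53, MYB92 and MYB107), against 26.7% of all promoters. CACGTG, which holds ACGTG, was in 3 (MYB41, MYB53 and MYB92), against 7.68%. In the 250 bases before the start alone, ACGTG was in 3 of the 10, against 22.9%, and CACGTG in 2 (MYB41 and MYB53), against 6.49%. Of the MYB-type motifs, ACCTACC was in ABCG2 alone, against 1.38% of promoters, and ACCAACC and ACCTAAC were in none, against 3.29% and 2.88%. GAANNTTC, the unit of heat shock elements, was in ABCG2 alone, against 11.6%. A match says only that the letters are present.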

How the data were processed

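RNA sequencing counts of 27 libraries were analysed. The authors assigned single-end reads to Araport11 transcripts with Salmon and deposited its estimated counts for every transcript, without normalisation; 61.5% of the values are not whole. The study's methods describe a filter on TPM and on variation between stages that left the loci analysed. Reads common to overlapping or similar transcripts are shared out by that model, and use of strand is not stated. Counts were summed per locus and rounded to whole numbers. TPM was computed from the deposited counts and effective lengths.

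DESeq2 1.42.0 in R 4.3.3, the study's test, was fitted once to all 27 libraries in 9 groups, without covariates, on the 21445 genes that reached 10 counts in 3 or more libraries. A gene was called where its p, adjusted by Benjamini-Hochberg over all tested genes after independent filtering, fell under 0.05, and all tests are two-sided. Intervals of pooled ratios are exact 95% binomial intervals and, like the floor of 3 counts, cover counting error only. The scripts were tested on simulated data.

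The members and the gene lists were chosen with earlier results of these data known. All 10 members are named. Of the suberin enzymes and the ABCG and MYB relatives, the 3 with the highest mean normalised count are named with values, and for 4 members the 3 genes of most like profile. FACT, ABCG16, ABCG19 and MYB39 are named as well, after their values were seen. Alternatives were edgeR 4.0.16 (quasi-likelihood), TMM and library-total size factors, no filter on low counts, no independent filtering, a threshold of 0.01, fits of only the compared groups, leaving out each library, and the replicate number as a block. Positions and upstream sequences came from RefSeq for TAIR10.1. The deposited table has no coordinates, and protein sequences were not used here.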

Additional observations from a re-analysis of the deposited data

Results flagged for a closer look

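MYB107 moved in opposite directions at 27 °C in different stages. All 3 libraries at 27 °C lay above all 3 at 23 °C in heart seeds (81.3 to 112, against 5.37 to 18.3 normalised counts) and in bent seeds (481 to 756, against 80.0 to 108), and all 3 lay below them in mature seeds (408 to 501, against 1014 to 1324). The log2 effect of 27 °C in mature seeds minus that in heart seeds was −4.44, and minus that in bent seeds −4.08. This difference between stages was not tested, because the gene was put forward with the 27 °C values known.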

How the results depend on the processing

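Direction was judged only for differences called in the first place. The calls under mild stress were the least stable. ABCG20, called lower in heart seeds at 25 °C against 23 °C, had 0.16 on the log2 scale without the first heart library at 23 °C, and 0.16 also when the third bent library at 23 °C was left out with it, an alternative chosen after seeing the data. Leaving out single libraries moved it between −2.88 and 0.16. The count of genes lower in heart seeds at 25 °C was then 0. It was also 0 with edgeR, with the replicate block, with only the compared groups and at the threshold of 0.01. The count lower in bent seeds at 25 °C was 0 with the same 4 alternatives, and 1 was higher with library-total size factors. In that comparison edgeR called 0 of all genes. The count lower from heart to bent seeds at 23 °C was 0 with only the compared groups and at 0.01. For 27 °C against 23 °C, 2 were higher in heart seeds at 0.01, 0 were lower in bent seeds with library-total factors and at 0.01, and in mature seeds 2 were higher with edgeR, 4 with only the compared groups and 2 without the doubted pair of libraries. The cause was not tested. With library-total size factors the share of higher among all called genes moved to 72% from 3.96% in bent seeds at 25 °C, to 69.5% from 52.2% in heart and to 74% from 43.1% in bent seeds at 27 °C. It moved to 33.3% from 49.7% for bent against heart and to 22.2% from 46.5% for mature against bent seeds at 23 °C, and to 15.2% from 51% for mature against bent seeds at 25 °C, where the median of all genes was −0.37.

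Over the 27 fits that each left out 1 library, the counts ranged as follows. At 25 °C against 23 °C they were 0 to 1 lower in heart seeds, and 0 to 1 higher and 0 to 2 lower in bent seeds. At 27 °C they were 2 to 5 higher in heart seeds, 7 to 8 higher and 0 to 1 lower in bent seeds, and 1 to 2 higher in mature seeds. From heart to bent seeds they were 4 to 5 higher and 1 to 3 lower at 23 °C, and 5 higher and 3 lower in every fit at 25 °C. From bent to mature seeds they were 9 higher in every fit at 23 °C and 8 to 9 at 25 °C. The 9 include MYB93, whose calls add nothing, as said above.

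The replicate number of the labels did not pair the samples: in none of the 18 pairs of groups did all 3 numbers correlate above 0.1. With the replicate block the 5 higher and 3 lower of bent against heart seeds at 25 °C and the 9 higher of mature against bent seeds were the same in number. Median likeness was 0.823 with Spearman's rho, 0.865 with a pseudocount of 5 and 0.802 over the 18 libraries at 23 and 25 °C. Fits of only the compared groups gave no value for genes that failed the filter there.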
